A study of Sus scrofa with 70 samples.

Results

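The let-7 family of the pig was followed through 5 male reproductive glands in the small RNA sequencing libraries of 2 breeds. The family was taken as every entry of the deposited miRNA table whose name begins with let-7, plus miR-98, which gave 13 entries under 11 distinct names of 676 names in 743 entries. let-7a and let-7f-5p are each listed in 2 entries, which were averaged. All 11 names had values above the minimum used for testing, which was 1 RPM (reads scaled to the miRNA read total of the library) in at least 3 of 30 libraries, and 468 names in all passed it.

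The libraries came from adult boars 12 months old of the Banna mini-pig inbred line (BMI), a line bred by close inbreeding, and of its source breed, the non-inbred Diannan small-ear pig (DSE). Testis and epididymis and the 3 accessory glands, which were the bulbourethral, prostate and vesicular gland, were each sampled in 3 replicates per breed, and the labels name no treatment or transgene in any group. Tissue was sequenced in bulk, so fewer cells of a type and less RNA per cell cannot be told apart. The 30 RNA-seq libraries of the same design were used for genes that act with let-7, and the 10 long-read libraries served only for transcript models.

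let-7 miRNAs are made from hairpin precursors that are cut by DROSHA in the nucleus and by DICER1 in the cytoplasm, and the mature strand guides an Argonaute protein to messenger RNAs that pair with its seed. LIN28 proteins bind the precursors and block this maturation in stem cells and in early germ cells. The family is known for restraining growth-promoting genes such as RAS, MYC and HMGA2 and for rising as cells differentiate.

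The mature sequences of the 5′ strand (5p), shown because the members are separated by so few bases, were read from RefSeq (Sscrofa11.1) and are printed 5′ to 3′ with the seed, bases 2 to 8, in capitals.
let-7a: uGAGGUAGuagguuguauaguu
let-7c: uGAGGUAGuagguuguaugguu
let-7d-5p: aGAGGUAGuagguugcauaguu
let-7e: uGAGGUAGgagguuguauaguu
let-7f-5p: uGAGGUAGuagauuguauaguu
let-7g: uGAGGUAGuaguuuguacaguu
let-7i-5p: uGAGGUAGuaguuugugcu
miR-98: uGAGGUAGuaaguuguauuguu
let-7d-3p: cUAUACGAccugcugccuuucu
The 8 strands of the 5p arm shared 1 seed, while let-7d-3p, from the opposite arm of its hairpin, carried another. Counted from 1 at the 5′ end and given against let-7a, let-7c differed by A19G, let-7e by U9G and let-7f-5p by G12A. let-7g differed by G12U and U18C, miR-98 by G11A and A19U, and let-7d-5p by U1A and U16C. let-7i-5p, listed with 19 bases, differed by G12U, A17G, U18C and A19U. Of the 28 pairs of 5p sequences, 3 differed at 1 base and 9 at 2 bases, so a read with a sequencing error can be counted under another member. let-7f-3p and let-7i-3p are named only.

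The hairpins lie on 6 chromosomes of this build, and positions are those of the mature part while distances are the bases between hairpins. On chromosome 3, let-7a-2 (chr3:43465677-43465698, plus strand) stands 275 bases from let-7f-2 (chr3:43466044-43466065), and let-7d-5p (chr3:43468511-43468532) follows 2370 bases further on. On chromosome X, miR-98 (chrX:46302436-46302457, minus strand) and let-7f-1 (chrX:46303299-46303320) are 784 bases apart in an intron of HUWE1, a ubiquitin ligase. let-7g (chr13:34406195-34406216, minus strand) lies in an intron of WDR82. let-7c (chr13:181303224-181303245) is 646 bases from miR-99a in an intron of an unnamed gene, let-7e (chr6:58332091-58332112, minus strand) stands between miR-125a and miR-99b, and let-7a-1 (chr9:49152637-49152658, minus strand) is 5243 bases from miR-100. let-7i-5p (chr5:27252807-27252825) has none of these neighbours. Because let-7a and let-7f-5p each come from 2 copies with the same mature sequence, their reads cannot be assigned to a cluster.

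Reads on miRNA entries, recovered from the steps of the RPM values in 28 of 30 libraries, ranged from 1294540 to 21682600. They were fewest in testis in both breeds (1294540 to 2722670 in BMI and 2978120 to 11815000 in DSE). These are not whole libraries, since the paper lists total small RNA reads in testis within the range of the other glands. It also describes an additional, longer read peak in testis alone, which it assigns to piRNAs. Shares and RPM given here are therefore of miRNA reads only. RNA-seq markers matched the labels in the 4 glands with matched markers, since summed testis markers were 67153 to 131028 TPM (transcript abundance scaled to the library total) in testis and at most 1009 elsewhere. No marker of the vesicular gland list was matched. The vesicular gland BMI replicate 1 and the prostate gland BMI replicate 3 stood apart, because miR-143-3p, a smooth muscle miRNA, held 4.18% and 3.01% of their reads against at least 30.7% in the DSE libraries of these glands. In the epididymis DSE replicate 2 it held 78.8%.

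The let-7 family took a larger share of miRNA reads in testis than in any other gland on average. It made up 6.60% ± 0.647 (SD, n = 6) of all miRNA RPM in testis, with a lowest value of 5.66%, a median of 6.82% and a highest of 7.18%. The bulbourethral gland followed with 4.75% ± 1.35 (n = 6), ranging from 3.21% to 6.77%. With the 2 entries of let-7a and of let-7f-5p summed in place of averaged, the means were 9.97% in testis and 6.86% in bulbourethral gland. The main shares set averaged names against the full RPM total, in which repeated names were not averaged. Against known miRNAs alone, with all repeated names averaged, the means were 7.34% in testis and 5.05% in bulbourethral gland. The ranges of these 2 glands overlapped, since the highest BMI bulbourethral library (6.77%) lay above the lowest testis library (5.66%). Prostate gland (3.42% ± 0.749), vesicular gland (2.94% ± 1.06) and epididymis (2.93% ± 0.699) lay lower (n = 6 each), and their ranges of 2.34% to 4.14%, 1.9% to 4.65% and 1.96% to 3.77% overlapped one another. Without the vesicular gland BMI replicate 1 that gland's mean was 2.60%, without the prostate gland BMI replicate 3 the prostate mean was 3.39%, and without the epididymis DSE replicate 2 the epididymis mean was 3.12%. These shares are a description, with no test.

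**Figure D1:**
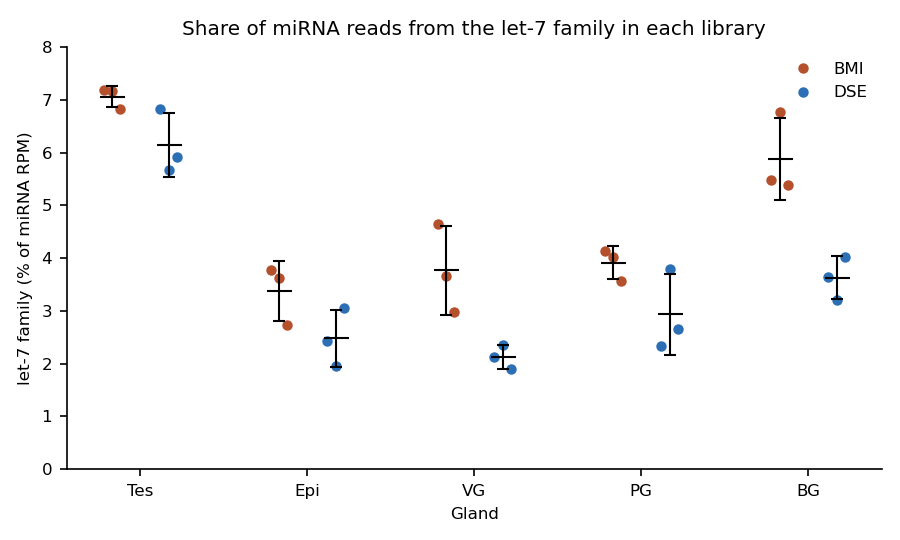
Share of miRNA reads held by the let-7 family (y axis, percent of miRNA RPM) in each library of the 5 glands (x axis), BMI in red and DSE in blue, with the mean and SD of each group of 3. The 6 testis libraries sit between 5.66% and 7.18%, and 1 bulbourethral library of BMI (6.77%) reaches that range.

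A few members carried almost the whole family, in an order that depends on how the 2 entries of let-7a and let-7f-5p are joined. The 2 copies of each name have the same mature sequence. Their entries differed by -0.51% to -0.09% of their mean for let-7a and by 2.36% to 11.4% for let-7f-5p. Summing would count a read that matches both copies under each of them. With entries averaged, let-7f-5p, let-7g, let-7a, let-7i-5p and let-7c were the 5 most abundant names in every gland, but their order changed. In testis the order was let-7f-5p (median 32.8% of the family), let-7g (22.7%), let-7a (18.0%), let-7i-5p (14.6%) and let-7c (8.23%), with no overlap between neighbours over 6 libraries. In the epididymis let-7i-5p (median 25.0%) and let-7f-5p (24.6%) led, and each was the higher of the pair in 3 of 6 libraries. let-7i-5p led in the vesicular gland (27.6%, above let-7a in 6 of 6 libraries) and in the bulbourethral gland (27.6%, above let-7f-5p in 3 of 6). In the prostate gland let-7a came first (23.7%), above let-7g in 4 of 6 libraries. let-7e, let-7d-5p and miR-98 followed in all glands with medians from 0.323% to 2.0%, and the 3p strands stayed below them. With the entries summed, let-7i-5p came first in no gland by mean share, let-7f-5p led in testis (43.8%), epididymis (33.3%) and bulbourethral gland (31.4%) and let-7a in vesicular and prostate gland (33.6% each), and in testis let-7a passed let-7g (15.0%).

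The shares of let-7f-5p and of its passenger strand let-7f-3p separated testis from every other gland. That of let-7f-5p was 32.1% to 34.9% in the 6 testis libraries, against 20.9% to 25.9% in the epididymis, 15.1% to 18.8% in the vesicular gland, 15.9% to 19.7% in the prostate gland and 19.5% to 26.5% in the bulbourethral gland. No library of another gland reached the testis range, nor did any with entries summed, where testis spanned 42.5% to 45.5% and the highest library elsewhere was at 36.0%. The share of let-7f-3p was 0.0315% to 0.0376% in testis and at most 0.0253% elsewhere. The testis ranges of the other 9 names overlapped those of other glands. A share within the family does not depend on the rest of the library, so the same pattern appears in ratios of 2 members.

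The ratio of let-7f-5p to let-7a, which differ at 1 base, ordered the glands. It was 1.71 to 1.92 in testis (median 1.84), 1.13 to 1.39 in the epididymis and 0.893 to 1.27 in the bulbourethral gland. It was 0.678 to 0.796 in the vesicular gland and 0.680 to 0.850 in the prostate gland, where let-7a was the more abundant in every library. The last 2 glands overlapped almost entirely, and epididymis and bulbourethral gland overlapped in part. The ratio of let-7f-5p to let-7i-5p was 2.0 to 2.90 in testis and at most 1.27 elsewhere. The ratio of let-7a to let-7c was 2.13 to 2.31 in testis and 1.88 to 2.74 in the bulbourethral gland, and at most 1.85 in the other 3 glands.

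**Figure D2:**
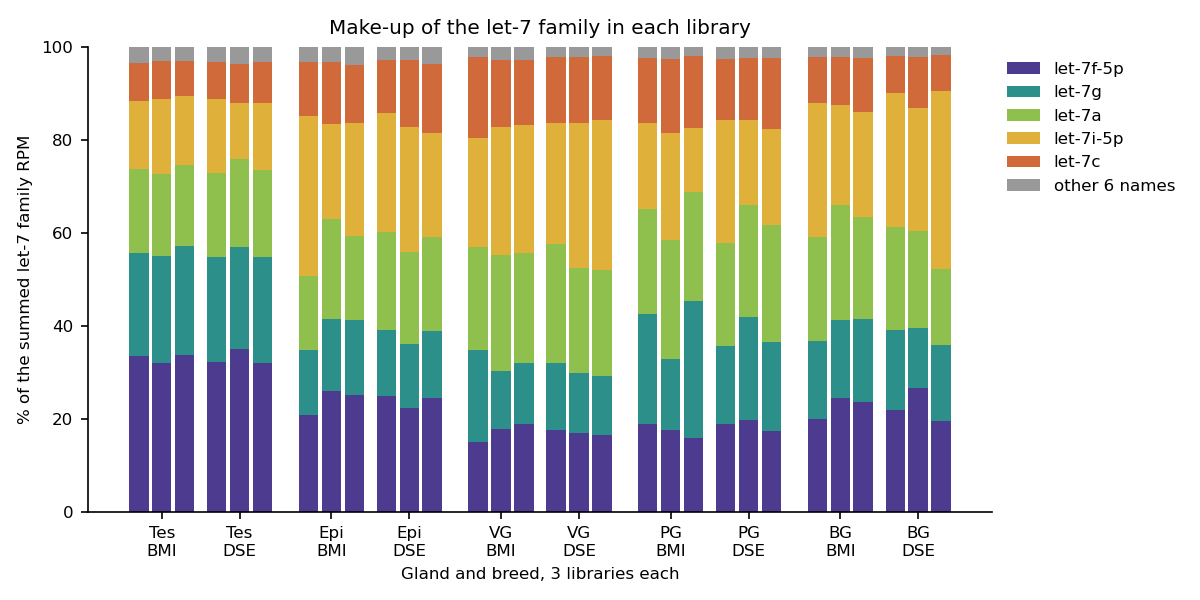
Percent of the summed let-7 RPM (y axis) held by each of the 5 leading members and by the other 6 names together, one bar per library (x axis, gland and breed). The lowest block, let-7f-5p, spans 32.1% to 34.9% in testis and at most 26.5% in the other glands.

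**Figure D3:**
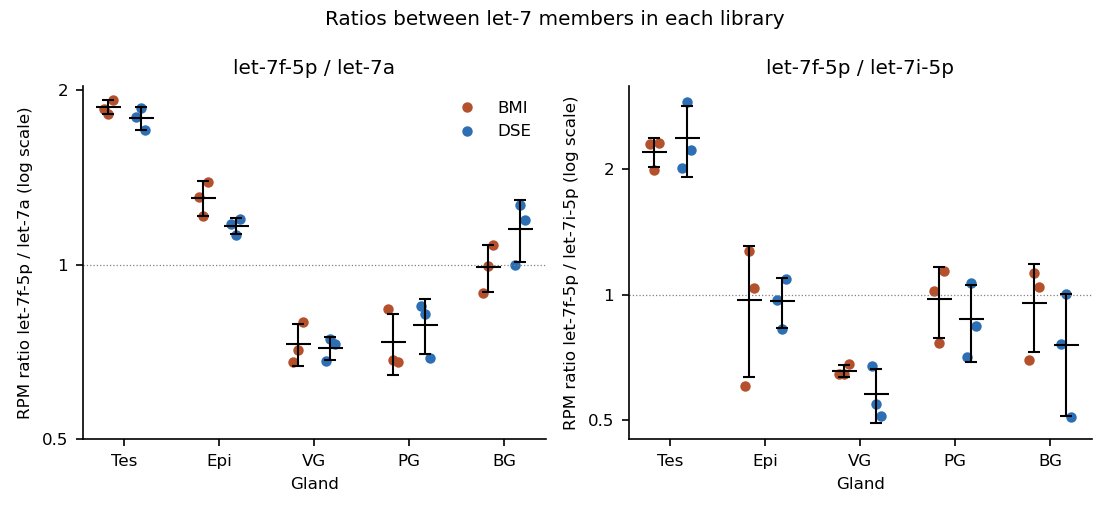
RPM ratio of let-7f-5p to let-7a (left) and to let-7i-5p (right) on log axes in each library by gland, BMI in red and DSE in blue, with mean and SD of 3. Both ratios are highest in testis, at 1.71 to 1.92 and 2.0 to 2.90, and the dotted line marks equal levels.

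The strands of the let-7d hairpin also differed between glands. let-7d-5p exceeded let-7d-3p by 2.72 to 3.63 times in testis (median 3.04), by 3.0 to 9.71 times in the epididymis and by at least 3.90 times in the other 3 glands. The testis range overlapped that of the epididymis. The let-7f-5p level exceeded that of let-7f-3p by at least 770 times, and the 5p strand of let-7i exceeded its 3p strand by at least 689 times, in every library. let-7f-5p pools both let-7f hairpins, whose 3p arms differ in sequence, so its ratio is not that of a single hairpin.

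On the RPM scale most members were higher in testis than in the mean of the other 4 glands. let-7f-5p had a lowest value of 18998 RPM, a median of 22438 and a highest of 24095 in testis, while the bulbourethral median was 9737 RPM, the epididymis median 7135, the prostate median 6374 and the vesicular median 4791. All 6 testis libraries were above the other 24, of which the highest reached 16539 RPM. The log2 fold change was 1.69 ± 0.15 (SE), or 3.24-fold (limma, Benjamini-Hochberg adjusted p = 4.71e-11). let-7g spanned 12527 to 16493 RPM in testis (median 15697) and at most 11448 elsewhere (1.47 ± 0.18, limma adjusted p = 3.61e-08). let-7i-5p spanned 6821 to 11497 RPM in testis, within its range in the epididymis and overlapping that in the bulbourethral gland, and did not pass the test (0.21 ± 0.17, limma adjusted p = 0.25).

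In all, 10 of 11 members passed the test as higher in testis and none as lower, against a background in which 84.4% of all 468 names were called, 77.1% as higher and 7.26% as lower. The strongest were the passenger strands let-7d-3p (132 ± 10.2 RPM in testis, 4.97-fold) and let-7f-3p (22.7 ± 2.96 RPM, 4.87-fold), and the weakest were let-7c (1.27-fold) and let-7i-3p (1.42-fold). Libraries of testis lay wholly above the other 24 for 5 members, let-7d-3p, let-7e, let-7f-3p, let-7f-5p and let-7g, where this held for 32.5% of all names. The members' median log2 fold change was 1.33 on the RPM scale, and the median of all names was also 1.33.

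Relative to that shift the members divided. After scaling by size factors (median of ratios) the median of all names in testis was 0.13 and that of the members was -0.30. let-7d-3p (0.70) and let-7f-3p (0.82) were still called higher, while let-7a (-0.94), let-7c (-1.29), let-7e (-0.37), let-7i-3p (-0.87) and let-7i-5p (-1.43) were called lower (limma, 68.8% of names called, 41.2% as higher and 27.6% as lower). Values of let-7f-5p (0.05), let-7g (-0.17), let-7d-5p (-0.30) and miR-98 (0.14) did not pass. The direction of let-7a, let-7c, let-7d-5p, let-7e, let-7g and both let-7i strands in testis therefore depends on the scaling, while that of let-7d-3p and let-7f-3p does not.

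**Figure D4:**
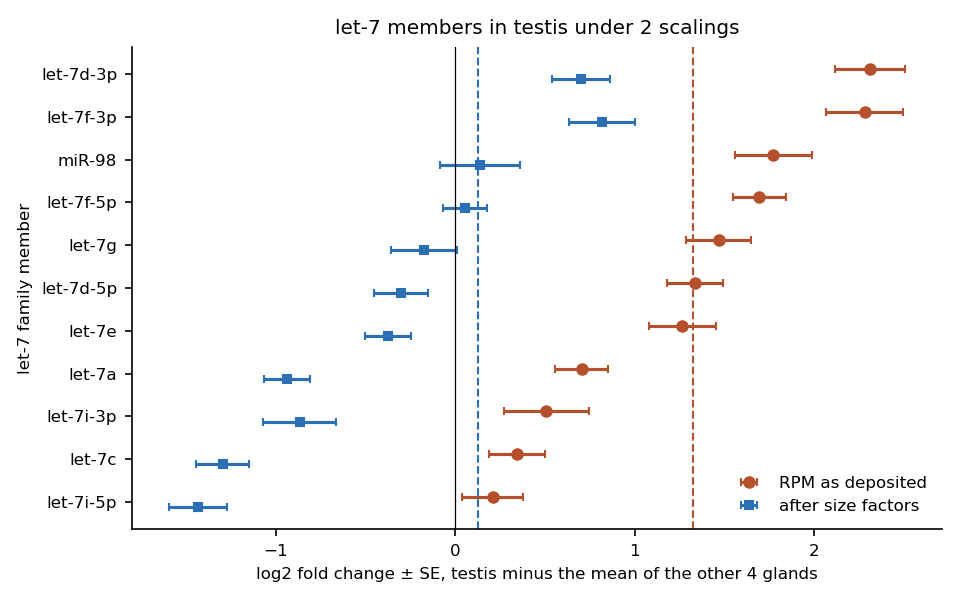
Log2 fold change with SE of each let-7 member in testis against the mean of the other 4 glands (x axis), from RPM as deposited (red circles) and after size factors (blue squares), with dashed lines at the median of all 468 names (1.33 and 0.13). let-7d-3p and let-7f-3p stay above 0 under both, while let-7a, let-7c, let-7d-5p, let-7e, let-7g and both let-7i strands turn from positive to negative.

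Other cell markers moved with gland as well. The endothelial miR-126 strands (2 of 2 present) summed to 10572 to 18353 RPM in testis and 982 to 12963 elsewhere. The epithelial list of miR-200 family members and miR-205 (4 of 6 names present) summed to 189 to 314 RPM in testis and 1801 to 43441 elsewhere, and miR-34c, the only one of 5 germ cell markers present, to 1218 to 4939 RPM in testis and at most 93.3 elsewhere. Their part in the let-7 differences was not tested.

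In the epididymis 6 of 11 members were called lower and none higher (limma, 40.6% of names called, 11.8% as higher and 28.8% as lower), namely let-7a (-0.68 ± 0.15), let-7d-3p (-0.59), let-7d-5p (-0.59), let-7f-3p (-0.66), let-7f-5p (-0.40) and let-7g (-0.83 ± 0.18, limma adjusted p = 0.000801). The median of all names there was -0.20, and without the epididymis DSE replicate 2 the count fell to 3. let-7a values were 6027, 7753 and 4932 RPM in BMI and 5149, 3869 and 6185 RPM in DSE epididymis. After size factors 4 members were called lower and 0 higher in epididymis, beside 22.2% and 17.1% of all names.

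In the vesicular gland 7 members were called lower and none higher (limma, 64.5% of names called, 5.77% as higher and 58.8% as lower). The lowest were let-7d-3p (-1.10 ± 0.19) and let-7f-5p (-1.04 ± 0.15), and the median of all names was -0.58. After size factors, where 50.9% of names were called (17.9% as higher and 32.9% as lower), none was called lower and 5 were called higher, let-7a (0.43), let-7c (0.63), let-7f-3p (0.45), let-7i-3p (0.49) and let-7i-5p (0.62), so these 5 changed direction with the scaling, as did miR-98 (0.017). In the prostate gland 4 members were called lower and none higher (limma, 37.4% of names called, 5.77% as higher and 31.6% as lower), let-7d-3p (-0.69), let-7f-5p (-0.62), let-7i-5p (-0.45) and miR-98 (-0.73). With the vesicular gland BMI replicate 1 and the prostate gland BMI replicate 3 both left out, let-7i-5p (-0.31) was no longer called. After size factors 2 members were called lower in prostate gland (23.3% of names) and 1 higher (11.8%). There edgeR called 0 lower (7.69%) and 1 higher (16%).

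In the bulbourethral gland let-7i-5p was higher than in the mean of the other 4 glands, with overlapping ranges. Its values were 15714, 14659 and 12200 RPM in BMI and 10516, 8493 and 15466 RPM in DSE, and its log2 fold change was 0.70 ± 0.17 (limma adjusted p = 0.00103). let-7f-5p was also called higher (0.36) and let-7f-3p lower (-1.0), where 57.1% of names were called, 11.8% as higher and 45.3% as lower, and the median of all names was -0.36. After size factors (51.5% of names called, 21.8% as higher and 29.7% as lower) 8 members were called higher and let-7f-3p lower, with let-7i-5p at 1.10. The 4 skeletal muscle miRNAs of the marker list, all present, summed to 26.8 to 6007 RPM in the DSE bulbourethral libraries, to 270 to 796 RPM in the BMI bulbourethral libraries and to 221 to 6274 RPM in the other glands. Their part in the let-7i-5p level was not tested.

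Neighbouring glands in the order of levels were compared in the same fit, where 81.2% of names were called between testis and bulbourethral gland. For let-7f-5p the order testis, bulbourethral gland, epididymis, prostate gland, vesicular gland had 2 steps past the threshold, testis above bulbourethral gland (1.07 ± 0.19, limma adjusted p = 1.06e-05) and bulbourethral gland above epididymis (a difference of -0.61 for epididymis minus bulbourethral gland, limma adjusted p = 0.0163). Epididymis against prostate gland did not pass (0.17, limma adjusted p = 0.56), nor did vesicular against prostate gland (-0.34, limma adjusted p = 0.233). Of all names, 28% were called between epididymis and bulbourethral gland, 19.7% between epididymis and prostate gland and 23.5% between vesicular and prostate gland. For let-7i-5p the bulbourethral gland came first, and testis against it did not pass (-0.39 ± 0.21, limma adjusted p = 0.091). For let-7a testis and bulbourethral gland did not pass either (0.29 ± 0.19, limma adjusted p = 0.162). The place of testis in these orders depends on the scaling. After size factors testis was called lower than bulbourethral gland for let-7f-5p (-0.57 ± 0.16, limma adjusted p = 0.00259), let-7a (-1.35 ± 0.16) and let-7i-5p (-2.03 ± 0.21), where 66.5% of names were called, 26.5% as lower. let-7f-5p in testis then did not pass against epididymis (0.20, limma adjusted p = 0.284), while epididymis stayed below bulbourethral gland (-0.77, limma adjusted p = 0.000386, 32.3% of names called).

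BMI and DSE were then compared within each gland, setting the inbred line against its source breed. No member passed the test in any gland (limma on 6 libraries). Of all names, 7.26% were called in testis (34 names), 0.855% in bulbourethral gland (4), 0.641% in vesicular gland (3) and 0.427% each in epididymis and prostate gland (2 each). At an unadjusted p under 0.05 there were 9 members in bulbourethral gland (28% of all names), 8 in vesicular gland (22.6%), 2 in prostate gland (8.12%), 1 in epididymis (14.3%) and 0 in testis (27.8%). Without the prostate gland BMI replicate 3 the prostate count was 1, beside 47 of all names. edgeR on recovered reads also called 0 members, where it called 9.4% of all names in testis, 1.07% each in prostate and bulbourethral gland, 0.855% in vesicular gland and 0.427% in epididymis.

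Most members were nonetheless higher on average in BMI, though so were most other names. Their fold change was positive for 8 of 11 members in testis (53.2% of all names), 11 in epididymis (85.3%), and 10 each in vesicular (73.3%), prostate (60.3%) and bulbourethral gland (80.1%). The median log2 fold change of the members was 0.15 in testis beside 0.06 for all names, 0.50 beside 0.53 in epididymis and 0.82 beside 0.35 in vesicular gland. It was 0.44 beside 0.08 in prostate gland and 0.86 beside 0.40 in bulbourethral gland. let-7i-3p was the member with a negative value in testis (-0.42), vesicular (-0.26), prostate (-0.71) and bulbourethral gland (-0.30), joined in testis by let-7d-3p (-0.09) and miR-98 (-0.15). Without the vesicular gland BMI replicate 1 the medians there were 0.68 beside 0.41, without the prostate gland BMI replicate 3 they were 0.49 beside 0.22, and without the epididymis DSE replicate 2 they were 0.28 beside 0.29. The sign of let-7i-3p turned in both directions, to 0.14 in vesicular gland without that BMI library and from 0.26 to -0.0069 in epididymis without that DSE library. After size factors the member medians ranged from 0.02 in testis to 0.27 in prostate gland, apart from epididymis (-0.29), where the direction turned with the scaling. Size factors rescale every name of a library alike. The turn in epididymis is therefore not particular to the family, whose RPM median was near that of all names (0.50 beside 0.53).

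The clearest values were in the bulbourethral gland. miR-98 read 204, 239 and 298 RPM in BMI against 73.4, 100 and 105 RPM in DSE. The groups did not overlap, and the log2 fold change was 1.40 ± 0.22 (limma adjusted p = 0.0526). let-7c read 5491, 6954 and 6270 RPM against 2924, 3484 and 3127 RPM (0.97 ± 0.15, limma adjusted p = 0.0526). BMI libraries lay wholly above DSE for 9 of 11 members in this gland, where this held for 30.8% of all names, for 9 in the vesicular gland, where it held for 29.7%, and for 3 in the prostate gland, where it held for 10% (47 names). It held for 2 members in epididymis (95 of 468 names) and for 3 in testis (81 names, with 72 names and no member wholly below). Without the vesicular gland BMI replicate 1 the count there was again 9 members, beside 47.2% of all names, and without the prostate gland BMI replicate 3 it was 7 members, beside 23.3% (109 names). Fewer libraries make such a separation easier to reach. After size factors miR-98 stood at 0.65 and let-7c at 0.21.

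In one fit of all 30 libraries, 4 members were called in the bulbourethral gland, let-7a, let-7c, let-7d-5p and miR-98, and miR-98 alone in epididymis and vesicular gland, where 5.56%, 10% and 1.28% of all names were called in the same order. In the vesicular gland miR-98 read 478, 132 and 126 RPM in BMI and 52.8, 73.4 and 54.0 RPM in DSE, and the highest of these is the BMI replicate 1 that stood apart. With it and the prostate gland BMI replicate 3 left out of the one fit, miR-98 was no longer called there (1.11 ± 0.32, limma adjusted p = 0.0788), and without the epididymis DSE replicate 2 it was no longer called in epididymis (1.05 ± 0.42, limma adjusted p = 0.228). Both ways of leaving libraries out were chosen after seeing the data. Among the libraries with recovered reads, those of DSE had more miRNA reads in epididymis (at least 19524400, against at most 14616500 in BMI) and vesicular gland (at least 19458300 against at most 16089600). This leaves out the epididymis BMI replicate 3, whose less certain estimate of 19850700 reads lies above the lowest DSE library. The part of depth in these differences was not tested. No member passed the test of whether its breed difference differed between glands (interaction F test in limma, 7.05% of names called), the lowest adjusted p being 0.152 for miR-98. With 3 replicates per group this does not show that the breed differences are equal.

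**Figure D5:**
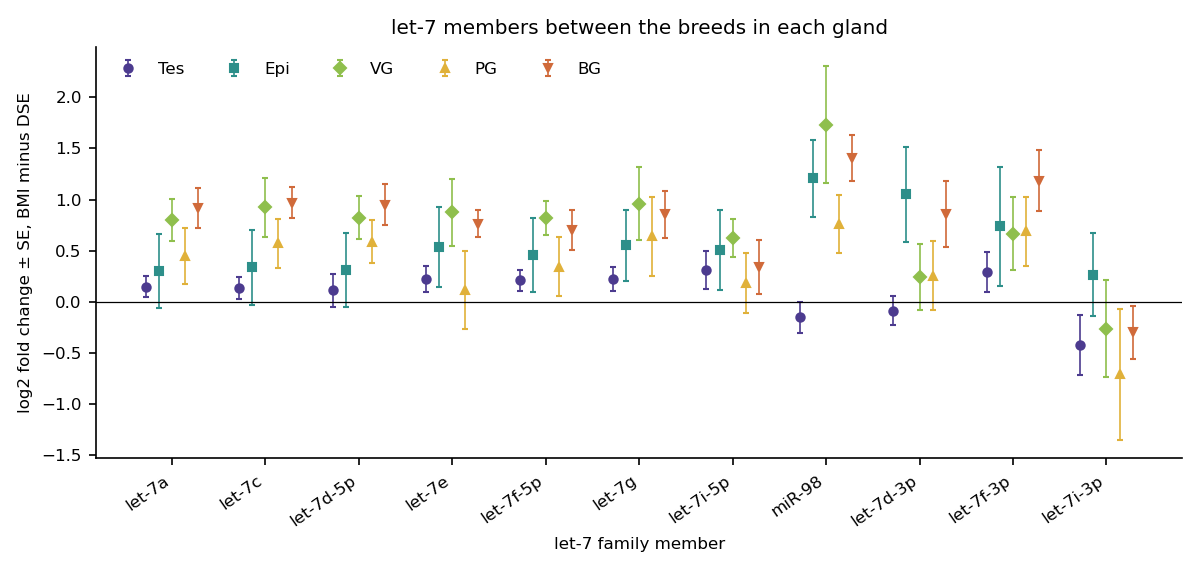
Log2 fold change with SE, BMI minus DSE, for each let-7 member (x axis) in each of the 5 glands, from RPM as deposited. Most points lie above 0, as do most other names, none passed the test, and after size factors the median of the members in epididymis is -0.29.

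The miRNAs that share a cluster with a let-7 member were compared over the 10 group means, as a description of values that share libraries and scaling. let-7e ran with miR-125a (Pearson r = 0.93) and miR-99b (0.89), and miR-98 with let-7f-5p (0.90). let-7c and miR-99a-5p had a lower r (0.62), and let-7a had r = 0.03 with miR-100 and 0.13 with miR-125b. In testis miR-99b was 4.78-fold above the other glands (2.26 ± 0.23, limma adjusted p = 1.10e-09), its neighbour let-7e 2.40-fold and miR-125a 1.97-fold. miR-99b stayed higher after size factors (0.62), while let-7e (-0.37) and miR-125a (-0.66) turned lower.

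The 5 names outside the family most like the summed family over these means, of 304 known names, were miR-191 (r = 0.97), miR-215 (0.94), miR-664-3p (0.94), miR-664-5p (0.93) and miR-15b (0.93).

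Genes that make or restrain let-7 were read from RNA-seq. LIN28A and LIN28B averaged 0.365 ± 0.252 and 0.505 ± 0.261 TPM in testis (n = 6), were listed at 0 in every library of the other glands and were too low to test. Of 12 tested genes of let-7 processing and regulation, 4 were called higher in testis and 1 lower (limma, 74.8% of 19796 genes called, 47.6% as higher and 27.2% as lower), with a median log2 fold change of 0.33 beside 0.31 for all genes. AGO2, an Argonaute that carries miRNAs, averaged 21.5 ± 6.21 TPM in testis and 1.99 to 3.79 TPM in the other glands (2.65 ± 0.24, limma adjusted p = 1.96e-10). XPO5, which exports precursors from the nucleus, averaged 60.5 ± 13.8 TPM in testis and 11.2 to 22.6 TPM elsewhere (1.95 ± 0.14). KHSRP (0.59), which promotes let-7 processing, and DROSHA (0.40) were higher and HNRNPA1 (-0.47), which binds let-7a precursors, was lower.

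Of 24 tested genes known as let-7 targets, 12 were called higher and 7 lower in testis, with a median of 0.30. These lay near the values of all 19796 genes, of which 9429 were higher and 5385 lower with a median of 0.31. The transcription factors ARID3A (3.69), ARID3B (3.18), PLAGL2 (3.02) and NR6A1 (2.99) led those that rose. MYC (-2.90), the cyclin CCND1 (-2.40), the growth factor receptor IGF1R (-1.85) and the RNA-binding protein IGF2BP2 (-1.53) led those that fell. ARID3B averaged 30.3 ± 10.5 TPM in testis against 1.74 to 2.67 TPM elsewhere, and MYC 1.68 ± 0.464 TPM against 13.6 to 32.1 TPM. After size factors 3 processing genes were higher and 4 lower in testis, and 11 targets higher and 10 lower, beside 44.5% of all genes higher and 33.9% lower.

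In the epididymis, where 58.4% of genes were called (38.7% as higher, 19.7% as lower), 7 of the 12 processing genes were called higher and none lower, with HNRNPA1 (0.87), DGCR8 (0.76), DIS3L2 (0.75) and TUT4 (0.74) in front. Of the targets 10 were higher there, among them CCND2 (1.71), CCND1 (1.17) and IGF2BP2 (1.15), and 7 lower, led by CDK6 (-1.37), CDC34 (-0.86), ARID3A (-0.65) and E2F5 (-0.59). This balance depends on the scaling, since after size factors 3 processing genes were higher and 3 lower and 5 targets higher and 11 lower, while all genes went to 20.6% higher and 34.1% lower with a median of -0.13, beside 0.25 before. HUWE1, host of miR-98 and let-7f-1, averaged 37.5 ± 6.90 TPM in testis (0.66, limma adjusted p = 0.0021), and WDR82, host of let-7g, did not pass in testis (0.25). Of 3 host genes tested, 1 was called higher in epididymis, beside 7667 of all 19796 genes. In vesicular gland 3 were called lower, beside 13947 of all genes.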

How the data were processed

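Small RNA and RNA-seq libraries of 5 glands of BMI and DSE boars were analysed, 3 replicates per breed and gland. According to the study's methods, the authors trimmed small RNA reads with cutadapt, removed structural RNAs with Bowtie 1.3.1, predicted additional miRNAs with miRDeep2 and quantified all with its quantifier script; no parameters are named for this step, and the paper states that defaults were used where none are named. The deposited miRNA values are RPM, scaled to the read total by the authors, with 2 decimals. The deposited RNA-seq values are TPM per transcript from Salmon 1.9.0, on libraries that the labels call rRNA depleted and the paper poly-A selected; they were summed to 35552 genes. The submitters' notes name build susScr11 and also STAR 2.7.10a and GSNAP. Versions of Bowtie, Salmon and STAR are the submitters' own. Other per-sample columns in these tables numbered 0.

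Repeated names were averaged. limma 3.58.1 with trend (R 4.3.3) was fitted to log2(RPM + 1) or log2(TPM + 1), with at least 1 RPM or TPM in at least 3 of 30 libraries, so fold changes of low values are understated. Gland contrasts came from 1 fit of 10 group means, breed contrasts from the 6 libraries of a gland, and p-values were Benjamini-Hochberg adjusted over all names or genes, with calls below 0.05. The deposited full-length read counts of the Iso-seq table were made by the authors and served only to describe transcript models around the hairpins. Whole reads were recovered from the RPM steps of 28 libraries, where 100% of low values came out whole within 0.0075 RPM, and edgeR 4.0.16 was run on them as an alternative, calling 300 names in testis. It left out the epididymis BMI replicate 3 and the vesicular gland DSE replicate 2. The fits were tested on simulated data. Sequences and positions came from RefSeq Sscrofa11.1 tables, and Python 3.11.15, numpy 2.4.6, pandas 2.3.3, matplotlib 3.10.9 and samtools 1.23.1 were used.

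The members, lists and tests were chosen with earlier results of these data known. All let-7 members were named, with at most 4 called genes per list and direction in testis and epididymis, both LIN28 genes, the cluster neighbours of let-7 and the 5 names most like the summed family; 1 gene that this rule selects is not reported here. TUT7, HMGA2, several epididymis markers, 2 markers of other glands and all 8 vesicular gland names were not matched in the RNA-seq table. Of the marker miRNA lists, blood cell miRNAs (3 of 3 present) summed to 250 to 6030 RPM, leukocyte miRNAs (4 of 4) to 16.6 to 193 RPM and smooth muscle miRNAs (2 of 2) to 13890 to 793627 RPM over all libraries. The labels do not tie replicates to animals, so p-values measure the spread between these samples, which may be technical. Replicate numbers were not used to pair samples in the main fits. Same-numbered libraries of a breed correlated at -0.62 to 0.54 over glands, which cannot tell whether they came from the same boar.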

Additional observations from a re-analysis of the deposited data

How the results depend on the processing

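Shares of all names called the same way are given in brackets. After size factors 2 members were called higher (41.2%) and 5 lower (27.6%) in testis, 5 higher (17.9%) and 0 lower (32.9%) in vesicular gland, 1 higher (11.8%) and 2 lower (23.3%) in prostate gland and 8 higher (21.8%) in bulbourethral gland. In epididymis size factors gave 0 higher (17.1%) and 4 lower (22.2%). edgeR gave 2 higher (35%) and 6 lower (29.1%) in testis, 3 (15.4%) and 0 (21.4%) in vesicular gland, 1 (16%) and 0 (7.69%) in prostate gland, 8 higher (22.4%) in bulbourethral gland and 2 lower (7.69%) in epididymis. The direction turned in testis, by size factors and by edgeR, for let-7a (-0.94, -1.13), let-7c (-1.29, -1.49), let-7d-5p (-0.30, -0.49), let-7e (-0.37, -0.54), let-7g (-0.17, -0.39), let-7i-3p (-0.87, -1.21) and let-7i-5p (-1.43, -1.63), and by edgeR alone for let-7f-5p (-0.13) and miR-98 (-0.068). It turned in vesicular gland for let-7a (0.43, 0.42), let-7c (0.63, 0.63), let-7i-5p (0.62, 0.57) and miR-98 (0.017, 0.14), by size factors alone for let-7f-3p (0.45) and let-7i-3p (0.49), and in bulbourethral gland for let-7c (0.40, 0.41); beyond the change of scale the cause was not tested. A call that also needed a log2 fold change of 1 left 2 members lower in vesicular gland (29.5%), 0 lower in prostate gland (52 of 468 names) and epididymis (10.3%) and 0 higher in bulbourethral gland (7.05%). BMI alone, with fewer libraries, gave 4 lower in vesicular gland (39.1%), 3 in epididymis (10.5%), 0 in bulbourethral gland (26.5%) and 2 in prostate gland (18.8%), and DSE alone 2 lower in epididymis (22.6%), 0 in prostate gland (18.2%) and 1 higher in bulbourethral gland (7.69%). The fit of all 30 libraries called 1, 1 and 4 members between breeds in epididymis, vesicular and bulbourethral gland. Without the 2 libraries of low miR-143-3p it called 2, 0 and 4 (of 70, 3 and 46 names), and without the epididymis DSE replicate 2 it called 0, 2 and 5 (of 5, 20 and 38 names), both alternatives chosen after seeing the data. Summing repeated names gave family shares of 9.97% in testis, 6.86% in bulbourethral gland, 4.86% in prostate gland, 4.19% in epididymis and 4.14% in vesicular gland, and the share of known miRNAs alone was 7.34% in testis. The replicate block left 1 member higher in bulbourethral gland (11.3%) and 9 in testis (76.1%), and called 25, 0, 0, 0 and 0 names between breeds; same-numbered libraries of a breed correlated at -0.62 to 0.54 over glands, with 22 of 60 above 0.1.

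Leaving out 1 library gave 8 to 10 members higher in testis (73.1% to 77.4%), 3 to 7 lower in epididymis (21.6% to 32.5%, with 3 members and 21.6% without the epididymis DSE replicate 2), 6 to 7 lower in vesicular gland (52.6% to 60.3%), 3 to 6 lower in prostate gland (24.8% to 35.5%) and 1 to 3 higher in bulbourethral gland (10.5% to 12.6%), where let-7f-5p and let-7a lie near the threshold. Among RNA-seq genes, no filter gave 7 processing genes higher in testis (12421 of all 35552 genes) and 2 lower in epididymis (4245), and size factors gave 4 lower in testis (33.9% of all genes), 3 higher (20.6%) and 3 lower (34.1%) in epididymis and 5 targets higher and 11 lower there. Leaving out both libraries with low miR-143-3p, an alternative chosen after seeing the data, kept the counts of members called at an adjusted p under 0.05 within 1.5 times in the gland fits and at 0 in the breed fits of single glands. Depth limits let-7f-3p and let-7i-3p most, which lay below 30 RPM in every library.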

Other observations

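The paired entries of the repeated names differed by unequal amounts. For let-7a the difference was -0.51% to -0.09% of their mean over the 30 libraries, and for let-7f-5p it was 2.36% to 11.4%, with a mean of 4.09% in testis and 7.10% in prostate gland. Summing the entries would count a read that matches both copies under each of them. In place of averaging, it raised the mean share of let-7f-5p in the testis family from 33.1% to 43.8% and lowered that of let-7g from 22.7% to 15.0%. It lowered the mean share of let-7i-5p from 25.7% to 18.0% in epididymis, from 28.0% to 19.9% in vesicular gland and from 27.8% to 19.4% in bulbourethral gland, and raised that of let-7a in vesicular gland from 23.7% to 33.6%.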
